A study of Homo sapiens with 17 samples.

Results

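The overlapping reading frames ATP8/ATP6 and ND4L/ND4 of the human mitochondrial genome were examined in J2 RIP-seq libraries of non-small cell lung carcinoma cell lines. The members were the gene rows and the coding sequence (CDS) rows of 4 genes (ATP8, ATP6, ND4L, and ND4) of 37 annotated genes, chosen by name, with each CDS row matched to its gene by start and end. In J2 RIP-seq, double-stranded RNA (dsRNA) is captured from a cell lysate with the J2 antibody, and here it was polyadenylated in vitro, converted to PCR-cDNA, and sequenced as long nanopore reads. A total of 17 libraries were used. There were 9 untreated libraries (3 each of H1437, H23, and PC9, named replicates 1 to 3), a control and an IMT1-treated library of each line, and a control and an ADAR1 KD (knockdown) library of H23. IMT1 inhibits the mitochondrial RNA polymerase, and ADAR1 converts adenosine to inosine in dsRNA. The dose and time of IMT1 are not given in the labels. The labels do not name the controls of the IMT1 and knockdown experiments, and they were taken from the alignment name given with each sample. The untreated libraries of a line are described in the study as independent experiments. The sources do not say whether these were separate cultures, and P values measure the spread between these libraries.

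Both pairs are textbook examples of bicistronic mitochondrial mRNAs, in which 2 proteins are read in different frames from the same molecule. ATP8 and ATP6 encode membrane subunits of ATP synthase (complex V). ND4L and ND4 encode membrane subunits of NADH dehydrogenase (complex I). Most mitochondrial mRNAs are released when the tRNAs that lie between them are cut out of a long precursor, but no tRNA separates the frames within these pairs. All 4 are read from the same strand, and RNA made from the opposite strand over the same interval can pair with them to give the dsRNA that J2 recognizes. The counts used here do not separate the strands.

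In the coordinates of the mitochondrial reference to which the deposited rows refer, ATP8 spans positions 8366 to 8572 (207 bases) and ATP6 spans 8527 to 9207 (681 bases), both on the + strand. They share 46 bases, which are 22.2% of ATP8. ATP6 also shares 1 base with COX3, a cytochrome oxidase gene, and so has a coding gene on either side and no tRNA gene. TRNK, the lysine tRNA gene, ends 1 base before ATP8. ND4L spans 10470 to 10766 (297 bases) and ND4 spans 10760 to 12137 (1378 bases), also on the + strand, and they share 7 bases. TRNR, the arginine tRNA gene, directly precedes ND4L, and TRNH, the histidine tRNA gene, directly follows ND4. The annotation treats each gene as 1 uninterrupted coding interval, with no introns.

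**Figure D1:**
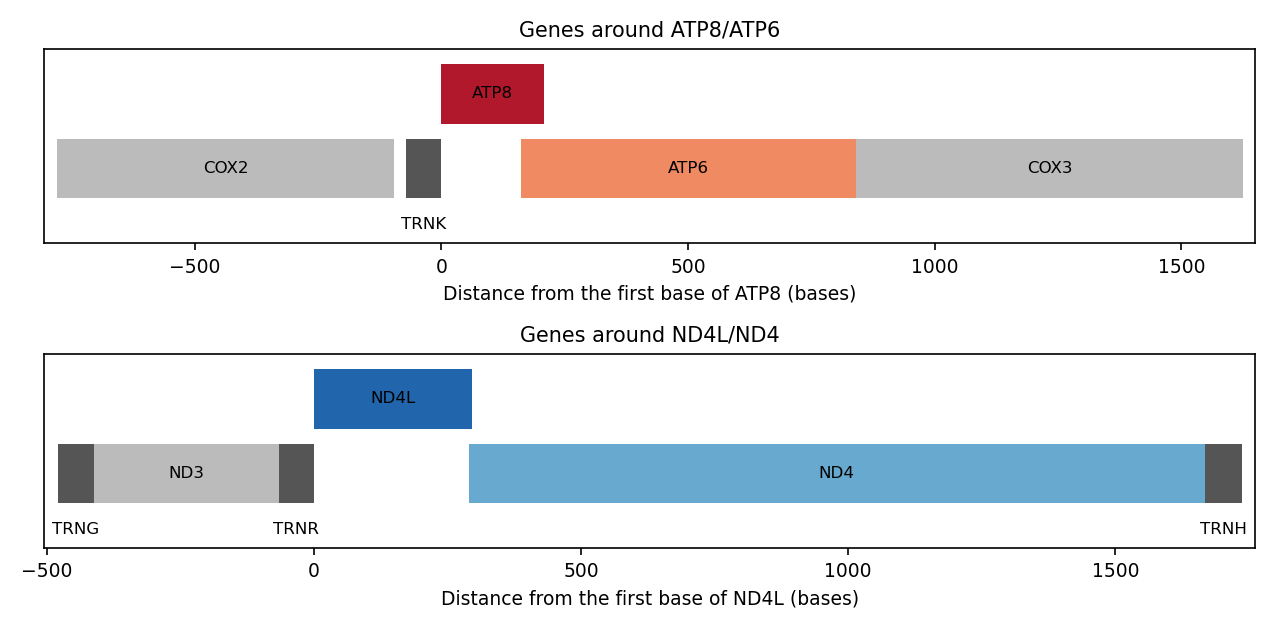
Positions of the genes around each pair, drawn to scale, with the distance from the first base of ATP8 (top) or ND4L (bottom) in bases on the x axis. Members are colored, other coding genes are light gray, and tRNA genes are dark gray. ATP8 and ATP6 overlap by 46 bases and ND4L and ND4 by 7, and a tRNA gene adjoins ATP8, ND4L, and ND4 but not ATP6.

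How reads were assigned decides what these rows can show. A gene row never held more reads than the CDS row of the same interval, in 0 of 68 comparisons of a member and a library. A read that touched more than 1 feature of the type counted was thus left out of every row of that type, although the methods also name a setting that allows such reads. In ATP6, whose neighbors are all coding genes, the gene row equaled the CDS row in 15 of 17 libraries. Reads over ATP6 and ATP8 together were therefore in neither the gene row nor the CDS row of either gene in those libraries. The gap between the 2 kinds of row counts reads that reached a tRNA or rRNA gene but a single coding gene, and does not count reads over both frames of a pair. The exceptions to the equality were H1437 replicate 1 (163 gene-row and 176 CDS-row reads) and PC9 replicate 1 (9 and 10). Their extra reads touched ATP6, no other coding gene, and a tRNA or rRNA gene that is not its neighbor, which a gapless alignment cannot do.

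Library depth ranged from 37113 to 6295486 total reads, and 1.14% to 47.2% of reads mapped to the mitochondrial genome. Levels are given as reads per 1000000 total reads (RPM), so that they move with the mitochondrial share of a library. That share was 11.0% to 24.4% in the untreated H23 libraries, 3.03% to 6.63% in H1437, and 1.89% to 7.45% in PC9. The study's text assigns the highest mapped share to H1437 and a lower one to H23, the reverse of the labels and alignment names of the deposited libraries. Elsewhere the study reports the highest mitochondrial dsRNA signal in H23. It also reports aligned reads significantly enriched in H23 over H1437 and PC9, the same direction as in the labeled libraries. Lines are named here by those labels, and every difference between H23 and H1437 below would change sign if the labels of these lines were exchanged. Fewer cells with the RNA and less RNA per cell cannot be told apart in these bulk libraries. The reads were mapped to the mitochondrial genome alone, and RefSeq lists 4 nuclear pseudogenes of ATP8, 31 of ATP6, 31 of ND4L, and 40 of ND4, from which reads were not set apart.

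All 4 members were higher in every untreated H23 library than in any untreated H1437 or PC9 library, by their labels, on the CDS rows and on the gene rows alike. No difference passed edgeR's test across all rows, whereas DESeq2 with total reads and several alternatives called members. ATP8, the shortest member, was the scarcest. Its CDS row held 40.9, 88.1, and 64.1 RPM in H23 replicates 1, 2, and 3. It held 2.22, 17.1, and 1.48 in H1437 and 2.00, 16.4, and 2.77 in PC9. These values rest on 5, 53, and 38 reads in H23 and on 1 to 14 reads in the other libraries.

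ATP6 CDS-row RPM were 360, 607, and 871 in H23 replicates 1, 2, and 3. They were 28.0, 56.9, and 29.5 in H1437 and 20.0, 126, and 20.7 in PC9. PC9 replicate 2 stood well above the other PC9 libraries, and the same library was the highest of its line for the other 3 members. ND4L CDS-row RPM were 286, 386, and 505 in H23, 95.3, 77.8, and 26.6 in H1437, and 3.99, 58.5, and 13.8 in PC9. ND4, the most abundant member, had 1578, 3953, and 5154 in H23, 177, 404, and 285 in H1437, and 85.8, 809, and 140 in PC9. For each member the H1437 and PC9 ranges overlapped, whereas H23 overlapped neither. On the CDS, rRNA, tRNA, and D-loop rows, 47.4% of all 38 rows had every H23 library above every H1437 library, and 44.7% had every H23 library above every PC9 library. On the 37 gene rows these shares were 48.6% and 45.9%.

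**Figure D2:**
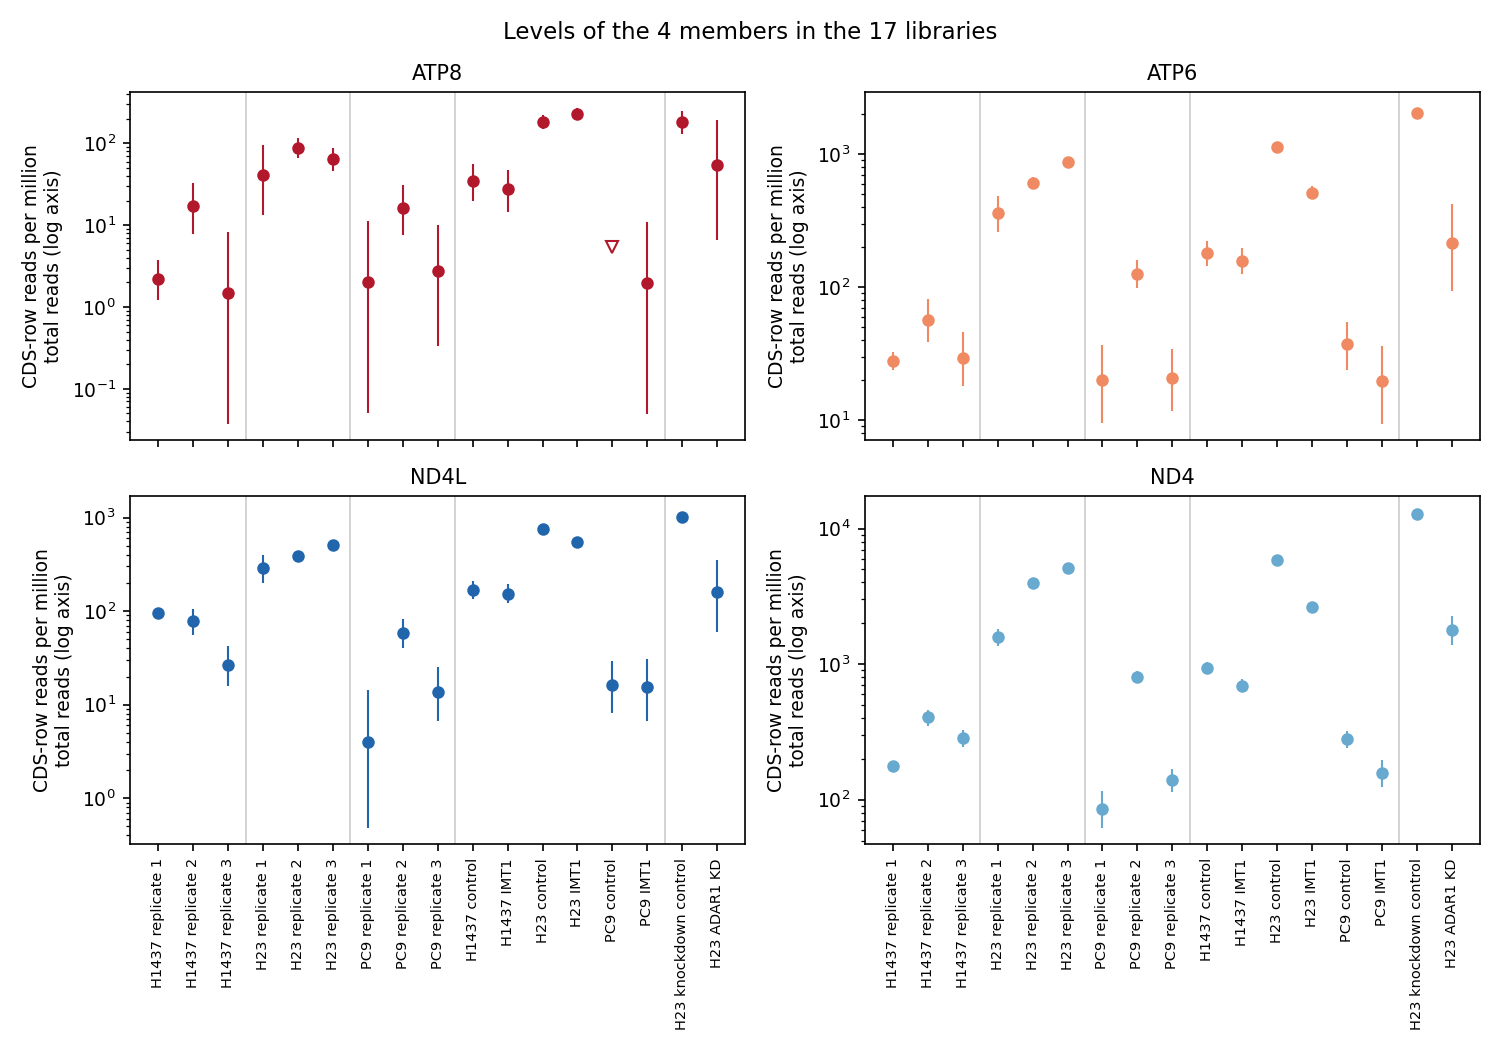
CDS-row reads per 1000000 total reads (RPM, log axis) of ATP8, ATP6, ND4L, and ND4 in each of the 17 libraries, with exact 95% Poisson intervals that cover counting error only. The open triangle marks the upper limit of ATP8 in the PC9 control, which held 0 reads. The untreated H23 libraries lie above all untreated H1437 and PC9 libraries in each panel.

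By edgeR's quasi-likelihood test with Benjamini-Hochberg adjustment over all 38 rows of this kind, none of the members passed between lines. ATP6 was higher in H23 than in H1437 by 4.01 ± 1.23 (SE) on the log2 scale, ND4 by 3.63 ± 1.41, ATP8 by 3.29 ± 1.34, and ND4L by 2.56 ± 1.18, all with an adjusted P of 0.184. The median of all 38 rows in this comparison was 2.01. Against PC9, the log2 differences were 3.94 ± 1.26 for ND4L, 3.46 ± 1.20 for ATP6, 3.37 ± 1.39 for ND4, and 3.19 ± 1.34 for ATP8, all with an adjusted P of 0.167 and beside a median of 2.26. Between H1437 and PC9 all 4 members had an adjusted P of 0.940. The test called 0 of 38 rows (0%) in each comparison. At an unadjusted P under 0.05 it had 8 rows for H23 and H1437, 9 for H23 and PC9, and 0 for H1437 and PC9. DESeq2 with size factors from total reads called 12, 9, and 0. Its calls included ATP6, ND4, and ATP8 for H23 and H1437 (adjusted P = 0.00443, 0.00771, and 0.0425), with ND4L at 0.0529, and all 4 members for H23 and PC9 (adjusted P from 0.0126 to 0.0430).

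The call depended on the libraries and rows that entered the test. Without PC9 replicate 2, edgeR called 13 of 38 rows between H23 and PC9, and all 4 members were among them, with adjusted P from 0.0184 for ATP6 to 0.0450 for ATP8. Without it, 2 rows were called between H23 and H1437, of which ATP6 was one (adjusted P = 0.0208). Without the tRNA rows, edgeR called ATP8, ATP6, and ND4 between H23 and H1437 (adjusted P = 0.0286 each) and all 4 members between H23 and PC9. With all untreated and control libraries it called ATP6 and ND4 (adjusted P = 0.0378 each) and all 4 members, respectively. The scale mattered as well. Relative to the other rows, with TMM factors, the H23 and H1437 difference of ND4L turned to -0.64, and those of ATP8, ATP6, and ND4 were 1.096, 1.30, and 0.96, while the median of all rows was -0.66. With TMM factors the differences between H23 and PC9 were 1.22, 1.14, 2.13, and 1.18 for ATP8, ATP6, ND4L, and ND4. None of these passed the test.

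On the gene rows, ATP8 had too few reads to be tested, and the other 3 members behaved as on the CDS rows. ATP6, ND4, and ND4L were higher in H23 than in H1437 by 4.03 ± 1.36, 3.77 ± 1.31, and 2.98 ± 1.34 on the log2 scale, with adjusted P of 0.136, 0.136, and 0.171. They were higher than in PC9 by 3.48 ± 1.33, 3.38 ± 1.29, and 4.09 ± 1.41, with adjusted P of 0.178. Again 0 of 35 rows (0%) were called in any of the 3 comparisons, with 9, 7, and 0 rows at an unadjusted P under 0.05 and 7, 0, and 0 calls by DESeq2 with total reads, ATP6 and ND4 being among the 7. Without PC9 replicate 2 the calls were 9 for H23 and H1437, with ATP6 and ND4, and 12 for H23 and PC9, with ATP6, ND4L, and ND4. Without the tRNA rows these 3 members were called in both comparisons.

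The members were not alone in their direction. All 7 complex I CDS rows had a positive log2 difference between H23 and H1437 (median 3.50, range 2.56 to 3.71), with ND4L the lowest of them. The 2 complex V rows had a median of 3.65, the 4 rows of complexes III and IV a median of 2.47, the 2 rRNA rows 0.80, and the 22 tRNA rows 1.12. Against PC9 the medians were 3.01 for complex I, 3.32 for complex V, 2.20 for complexes III and IV, 0.75 for the rRNAs, and 2.06 for the tRNAs. No row of any of these lists passed the test, in either direction.

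Per length, ATP8 and ATP6 were at the bottom of the 13 coding sequences. ATP8 had the lowest CDS-row level, in RPM per kb, in 16 of 17 libraries, and ATP6 ranked among the lowest 3 in 14 of 17. In untreated H23, ATP8 had 311 ± 114 (SD, n = 3) and ATP6 899 ± 375 RPM per kb. The next lowest was ND4L with 1320 ± 368, and ND4 had 2584 ± 1320. In H1437 the order of the means was ND4L at 224 ± 120, ND4 at 209 ± 82.6, ATP6 at 56.0 ± 23.9, and ATP8 at 33.5 ± 42.5. In PC9 it was ND4 at 250 ± 292, ND4L at 85.6 ± 97.7, ATP6 at 81.6 ± 89.6, and ATP8 at 34.1 ± 39.3. Neighbors in these orders lay within the larger of their SDs of each other, except ND4L above ATP6 and ATP6 above ATP8 in H23, and ND4 above ATP6 in H1437. These SDs include the spread in mitochondrial share between libraries, which the members of a library have in common. Library by library, ND4 exceeded ND4L and ATP6 exceeded ATP8 in every PC9 replicate, whereas ND4L and ATP6 changed order.

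Within each pair the second frame usually had more reads per kb than the first. ATP6 exceeded ATP8 in 16 of 17 libraries (median ratio 2.33), and ND4 exceeded ND4L in 15 of 17 (median ratio 2.18). When only bases not shared with another gene were counted in the length, a measure added after seeing the data, ATP6 exceeded ATP8 in 15 of 17 (median 1.95) and ND4 exceeded ND4L in 15 of 17 (median 2.14). A read that ran from one frame into the other, or covered enough of the bases they share, was in neither row. These levels therefore describe reads assigned to a single coding sequence, and a short gene next to others can hold fewer of them.

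No difference between the lines was detected in the balance within ATP8/ATP6, on few ATP8 reads. ATP6 had 12.6, 3.33, and 20.0 CDS-row reads for each ATP8 read in H1437 replicates 1, 2, and 3. It had 8.80, 6.89, and 13.6 in H23 and 10.0, 7.67, and 7.50 in PC9, so that the 3 ranges overlapped. These ratios rest on 14, 9, and 1 ATP8 reads in H1437 and 5, 53, and 38 in H23. In PC9 they rest on 1, 9, and 2. With so few reads, a difference between lines could be missed. The mean log2 ratio (0.5 added to each count) was 3.02 ± 1.16 (SD, n = 3) in H1437, 3.18 ± 0.51 in H23, and 2.77 ± 0.12 in PC9. A two-sided exact permutation test of the F statistic over the 3 lines gave P = 0.811 (adjusted P = 1.00 over the 12 neighboring pairs of coding genes).

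ND4 had 1.85, 5.20, and 10.7 CDS-row reads for each ND4L read in H1437 replicates 1, 2, and 3. It had 5.51, 10.2, and 10.2 in H23 and 21.5, 13.8, and 10.1 in PC9. The mean log2 ratio was 2.21 ± 1.26 (SD, n = 3) in H1437, 3.05 ± 0.52 in H23, and 3.72 ± 0.43 in PC9, and the exact permutation test gave P = 0.104 (adjusted P = 0.249). After adjustment 0 of the 12 neighboring pairs (0%) passed, and before it 4 did, the smallest P being that of ND4L/ND3 (exact permutation P = 0.00714, adjusted P = 0.0857). H1437 replicate 1, the deepest library, stood apart from the others of its line. ND4L made up 35.1% of its pair's reads there (95% Wilson interval 32.8% to 37.4%, 600 of the reads), against 16.1% in replicate 2 and 8.53% in replicate 3.

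**Figure D3:**
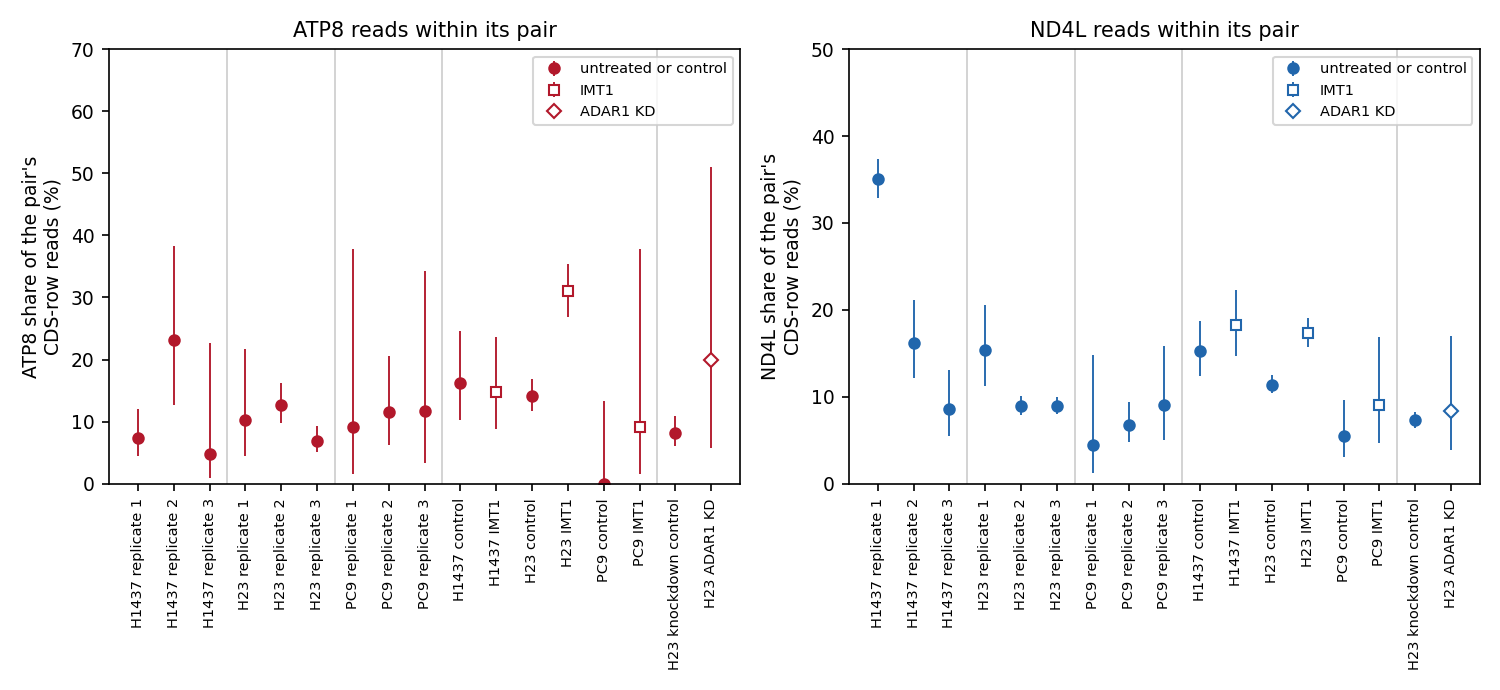
ATP8 as a share of ATP8 and ATP6 CDS-row reads (left) and ND4L as a share of ND4L and ND4 CDS-row reads (right), in percent, in each of the 17 libraries with 95% Wilson intervals. Filled circles are untreated or control libraries, open squares IMT1, and the open diamond ADAR1 KD. ND4L reaches 35.1% in H1437 replicate 1, and ATP8 reaches 31.0% in the IMT1-treated H23 library.

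The share of CDS-row reads that the gene row also held, that is, reads that touched no other gene, differed widely between the members. Over all libraries together it was 24.0% for ATP8, 99.5% for ATP6, 67.6% for ND4L, and 92.9% for ND4. The other 9 coding genes ranged from 21.3% to 97.1% (median 53.9%). In libraries with at least 10 CDS-row reads, ATP8 ranged from 7.91% to 53.8% (8 libraries), ND4L from 38.5% to 100% (14 libraries), and ND4 from 69.4% to 97.9% (all 17). Of the pooled CDS-row reads, most of ATP8 thus also touched a tRNA or rRNA gene, whereas most of the other 3 members did not. Among libraries with enough reads, the exceptions were ND4L in the H1437 control (38.5%) and ATP8 in the IMT1-treated H1437 library (53.8%). The IMT1-treated H23 library gave 139 of the 445 pooled ATP8 reads.

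ND4L gene-row shares were 51.5%, 65.9%, and 55.6% in H1437 replicates 1, 2, and 3, and 100%, 69.8%, and 70.9% in H23. In PC9 they were 65.6% and 80.0% in replicates 2 and 3. Replicate 1 of PC9 had 2 ND4L reads and gave no share. The H1437 libraries lay below the H23 libraries but overlapped PC9, and the exact permutation test over the 3 lines gave P = 0.168 (adjusted P = 0.879 over the 12 coding genes with enough reads). ND4 shares were 93.0%, 91.5%, and 69.4% in H1437, 96.9%, 93.2%, and 93.1% in H23, and 93.0%, 93.9%, and 88.1% in PC9 (exact permutation P = 0.261, adjusted P = 0.879). The ND4 share of H1437 replicate 3, at 69.4% (95% Wilson interval 62.6% to 75.5%), was below that of every other library. ATP6 adjoins only coding genes, so that its position holds its share at or near 100%. Its exact permutation P of 1.00 therefore says nothing about the lines. ATP8 had too few reads to be tested. None of the 12 coding genes passed after adjustment.

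**Figure D4:**
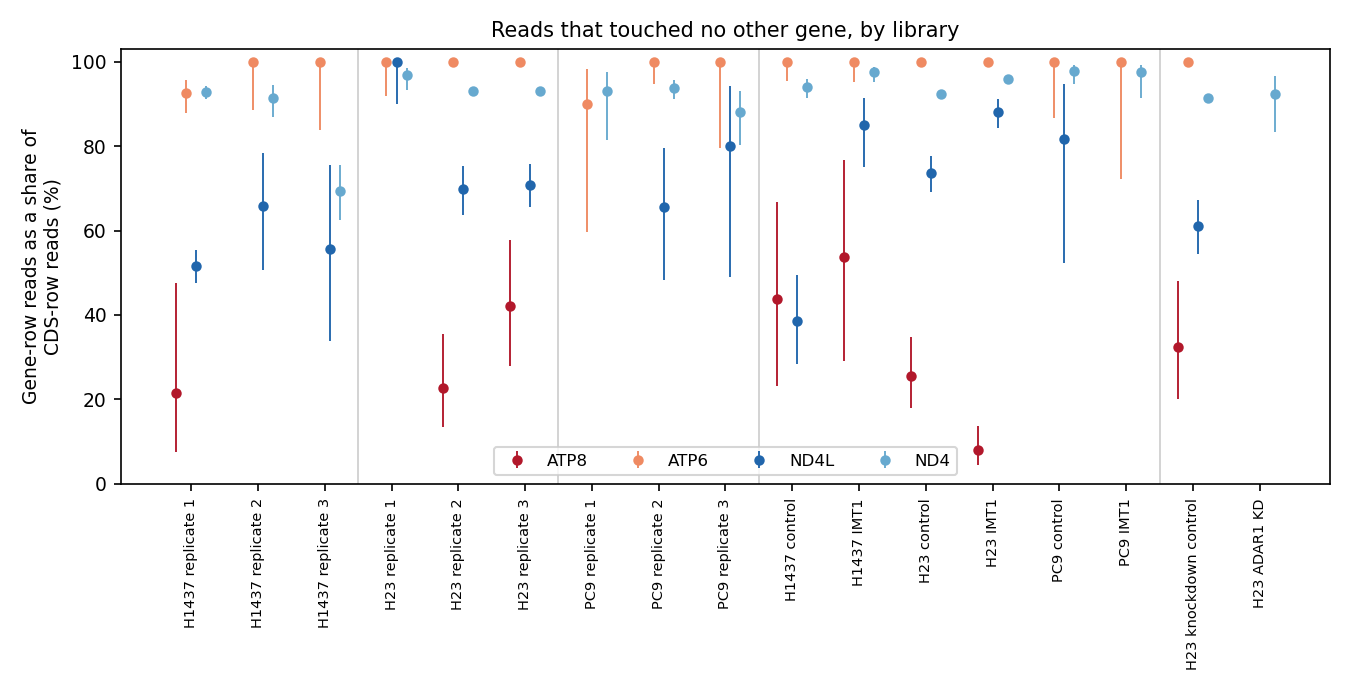
Gene-row reads as a percentage of CDS-row reads for the 4 members in each library, with 95% Wilson intervals, shown where a CDS row held at least 10 reads. ATP6 lies at or near 100% throughout, ND4 mostly above 90%, and ND4L between 38.5% and 100%. ATP8, where shown, is lowest except in the H1437 control (ND4L lower), and falls to 7.91% in the IMT1-treated H23 library.

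Reads over a tRNA gene and 2 or more coding genes could be bounded at the border before ND4L, a measure added after seeing the data. Reads on the TRNR row that are missing from its gene row touched TRNR, no other tRNA gene, and at least 1 further gene. Subtracting the reads that ND3 and ND4L each lost between their CDS and gene rows, and any TRNR reads that also lay on an rRNA, leaves the least number that covered TRNR and 2 or more coding genes. Reads without alignment gaps that do so must cover ND4L together with ND3, ND4, or both, and they are counted on none of those CDS rows. ND4L and ND4 share 7 bases, more than the smallest overlap named in the study's methods. A read that ends with ND4L can therefore count as covering ND4 too. Reads over TRNR and 2 or more coding genes were present in 13 of 17 libraries.

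In H1437 replicate 1 at least 113 of 486 TRNR reads that reached another gene covered 2 or more coding genes. In replicate 2 it was at least 20 of 43. In replicate 3 the bound was 0 of 10. In H23 it was 0 of 2, 23 of 190, and 102 of 357 in replicates 1, 2, and 3, and in PC9 28 of 58 and 7 of 11 in replicates 2 and 3, with no TRNR read that reached another gene in replicate 1. All 3 lines therefore had libraries with reads over TRNR and 2 or more coding genes. How many of them reached beyond the bases that ND4L shares with ND4 cannot be told from these counts. For comparison, H1437 replicate 1 had 600 reads and H23 replicate 3 had 299 reads on the ND4L CDS row. TRNR reads also lay on an rRNA gene in 1 of 17 libraries, H1437 replicate 1, with 3 reads. That library also had 27 TRNK reads on an rRNA gene and 13 ATP6 reads that a gapless alignment cannot give. Its bound of 113 may therefore include reads with gaps, which the subtraction does not remove. The same subtraction at TRNK and TRNH gave no positive bound, so that reads over ATP8 and ATP6 together remain uncounted here.

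**Figure D5:**
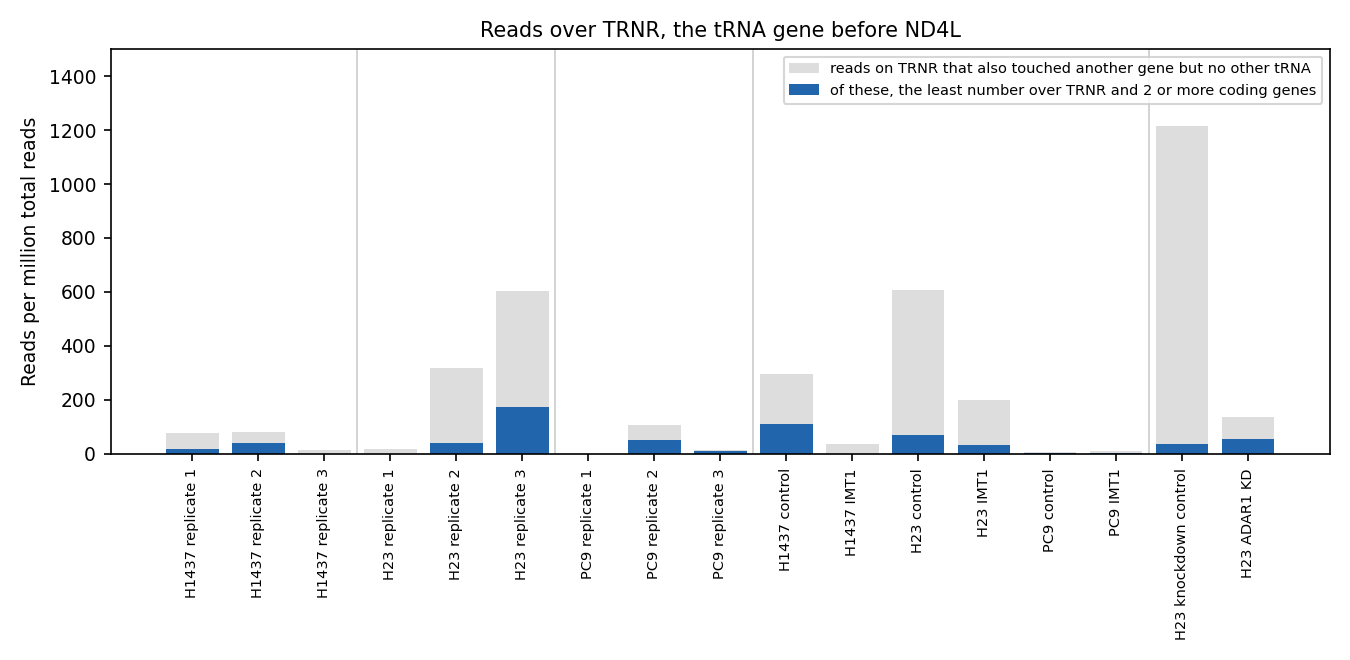
Reads per 1000000 total reads that touched TRNR and another gene but no other tRNA gene (gray bars), and the least number of these that covered 2 or more coding genes (blue, drawn from 0 in front of the gray), in each library. The bound is above 0 in 13 of 17 libraries and highest in H23 replicate 3.

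The mitochondrial share of the reads was smaller in the IMT1 library of each line, at 1.14% against 5.30% in H1437, 9.83% against 30.5% in H23, and 3.94% against 6.73% in PC9. ATP6, ND4L, and ND4 had lower CDS-row RPM with IMT1 than in the control in all 3 lines, but none passed the test. Of 37 rows above 0 in the 3 controls, 35.1% were lower in all 3 lines. ATP6 had 158 RPM with IMT1 and 180 in the control in H1437, 514 and 1129 in H23, and 19.6 and 37.0 in PC9. ND4 had 692 RPM with IMT1 and 939 in the control in H1437, 2618 and 5864 in H23, and 156 and 278 in PC9. ND4L had 154 and 170, 548 and 754, and 15.6 and 16.3 RPM in the same order. ATP6 and ND4 were furthest below their controls in H23, at 45.5% and 44.6% of the control level, whereas ND4L was at 72.7% there and at 96.0% in PC9.

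ATP8 was lower with IMT1 in H1437 alone, and its counting intervals with IMT1 and in the control overlapped in H1437 and in H23. Its CDS row had 27.4 RPM with IMT1 and 34.8 in the control in H1437 (13 and 16 reads), and 231 and 185 RPM in H23 (139 and 102 reads). In PC9 it had 1 read with IMT1 and 0 in the control. The H23 value with IMT1 was above those of the 3 untreated H23 libraries and the IMT1 control. Of the 12 combinations of member and line, the only other IMT1 value outside the range of the libraries without it was ATP6 in PC9, at 19.6 against a lowest value of 20.0. In the H23 pair the ATP8 reads that touched no other gene numbered 26 in the control and 11 with IMT1, and the reads that also touched a tRNA or rRNA gene 76 and 128. TRNK reads that reached another gene numbered 149 in the control and 152 with IMT1.

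The edgeR log2 differences (IMT1 minus control) of CDS rows with cell line as a block were -0.81 ± 0.76 (SE) for ND4 (adjusted P = 0.756), -0.74 ± 0.46 for ATP6 (adjusted P = 0.531), -0.23 ± 0.41 for ND4L (adjusted P = 0.897), and 0.30 ± 0.80 for ATP8 (adjusted P = 0.898). The median of all 38 rows was -0.79, and 0 of 38 (0%) were called, with 6 at an unadjusted P under 0.05 and 5 called by DESeq2 with total reads. Without PC9, 14 rows were called. Relative to mapped reads instead of total reads, the log2 differences of ATP6, ND4L, and ND4 were 0.81, 1.35, and 0.72, and with TMM factors 0.12, 0.66, and 0.0066, so that the direction of these 3 depended on the scale. On the gene rows, 0 of 33 (0%) were called, with 3 at an unadjusted P under 0.05 and 1 by DESeq2. Without PC9 edgeR called 5. The gene-row differences were -0.74 ± 0.87 for ATP6, -0.78 ± 0.81 for ND4, and 0.28 ± 0.88 for ND4L, with adjusted P of 0.854, 0.854, and 0.921. Of 34 gene rows above 0 in the 3 controls, 23.5% were lower with IMT1 in all 3 lines, and ATP6 and ND4 were among them.

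Within the complex I pair, ND4 had fewer reads for each ND4L read with IMT1 than in the control in each line. With IMT1 there were 4.49 ND4 reads for each ND4L read in H1437 (5.54 in the control), 4.77 in H23 (7.78 in the control), and 10.0 in PC9 (17.1 in the control). The mean log2 change was -0.60 ± 0.26 (SD, n = 3 lines), lower in 3 of 3, with an exact sign-flip permutation P of 0.25, the smallest that 3 pairs allow. The intervals of the ND4L share of its pair were apart in H23 (10.4% to 12.5% in the control and 15.7% to 19.1% with IMT1) and overlapped in H1437 and PC9. On gene rows the mean log2 change was -1.06 ± 0.28. Of the 12 neighboring pairs, 7 moved the same way in all 3 lines, so that this agreement of direction was common.

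There were 5.77 ATP6 reads for each ATP8 read with IMT1 in H1437 (5.19 in the control) and 2.22 in H23 (6.11 in the control), and the PC9 control had no ATP8 read. The mean log2 change was -1.39 ± 1.51 (SD, n = 3 lines), with an exact sign-flip permutation P of 0.500. It includes -2.87 for PC9, which rests on 0 and 1 ATP8 reads with 0.5 added to each count. Without PC9 the mean was -0.66. In H23 ATP8 made up 14.1% of the pair's reads in the control (95% Wilson interval 11.7% to 16.8%) and 31.0% with IMT1 (26.9% to 35.5%). In H1437 these shares were 16.2% and 14.8%, with overlapping intervals.

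A larger share of the ND4L CDS-row reads touched no other gene with IMT1 in the 2 lines with enough reads, as was so for 7 of the 13 coding genes (53.8%). In H1437 the ND4L gene-row share was 38.5% (95% Wilson interval 28.4% to 49.6%) in the control and 84.9% (75.0% to 91.4%) with IMT1. In H23 it was 73.6% (69.1% to 77.6%) in the control and 88.2% (84.2% to 91.2%) with IMT1, so that the intervals were apart in both lines. The differences of 46.5 and 14.6 percentage points were close to those of ND1 (46.6 and 10.0), ND2 (47.4 and 14.1), and COX1 (45.4 and 14.8). In PC9 the ND4L reads were 9 of 11 in the control and 7 of 8 with IMT1, under the minimum for a share. Over the 2 lines the mean difference was 30.5 percentage points, and the exact sign-flip permutation P was 0.500, the smallest that 2 pairs allow. Reads on TRNR that reached another gene had 35.9 RPM with IMT1 and 293 in the control in H1437, and 198 and 607 RPM in H23. The ND4 share with IMT1 was 97.6% in H1437 (94.0% in the control), 96.0% in H23 (92.3%), and 97.5% in PC9 (97.9%) (exact sign-flip permutation P = 0.500). ATP6 was at 100% in all 6 libraries, where its position between coding genes holds it.

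The ADAR1 KD library of H23 held 37113 total reads, of which 11.0% mapped, and its control 221155, of which 47.2% mapped. With 1 library against 1 there was no test, and the intervals cover counting error only. ADAR1 is a nuclear gene, so that the knockdown could not be checked in these rows. The study describes the knockdown as by siRNA, with a nontargeting siRNA as its control, and shows a Western blot of ADAR1 in H23. ATP6 had 2035 CDS-row RPM in the control (exact Poisson interval 1851 to 2232) and 216 (93.1 to 425) in ADAR1 KD, 9.44-fold less. ND4 had 12783 (12316 to 13263) and 1778 (1375 to 2263), 7.19-fold less. ND4L had 1008 (880 to 1150) and 162 (59.3 to 352), 6.24-fold less. ATP8 had 181 (129 to 246) and 53.9 (6.53 to 195), the latter from 2 reads, a ratio of 3.36 whose counting interval on the log2 scale, -4.84 to 0.20, spans no difference.

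Of 35 CDS, rRNA, tRNA, and D-loop rows above 0 in both libraries, 97.1% were more than 2-fold lower in ADAR1 KD, with a median log2 ratio of -2.57. The log2 ratios were -1.75 for ATP8, -3.24 for ATP6, -2.64 for ND4L, and -2.85 for ND4. Relative to mapped reads they were 0.35, -1.14, -0.55, and -0.75. On gene rows, ATP6, ND4L, and ND4 had 8, 6, and 61 reads in ADAR1 KD, all 3 more than 2-fold lower in RPM, as were 88.0% of 25 rows. ATP8 had 13 gene-row reads in the control and 0 in ADAR1 KD, which allows up to 99.4 RPM by the exact Poisson interval, above the 58.8 RPM of the control. The control held higher RPM of ATP6, ND4L, and ND4 than any other H23 library.

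The balance within the pairs was within counting error in this experiment. ND4L made up 7.31% of its pair in the control (95% Wilson interval 6.44% to 8.29%) and 8.33% (3.88% to 17.0%) in ADAR1 KD. ATP8 made up 8.16% (6.05% to 10.9%) and 20.0% (5.67% to 51.0%). The ND4L gene-row share was 61.0% in the control, and all 6 ND4L reads in ADAR1 KD were on the gene row. At this depth, differences within these intervals were not detectable.

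Over all 17 libraries, the CDS-row levels of the members varied together with those of other coding genes. These are descriptions over libraries that share the varying mitochondrial share, with no test. For ATP6 the most similar CDS or rRNA row was ND4 (Spearman's rho 0.99, n = 17 libraries), followed by ND4L (0.95). For ND4 they were ATP6 and ND4L (0.99 and 0.95), and for ND4L they were ATP6 and ND4 (0.95 in each case). For ATP8 they were ND5 (0.92) and ND4L (0.91), and its partner ATP6 ranked next (0.90). The rRNA rows RNR1 and RNR2 were the least similar of the 14 rows to each member, with rho from 0.09 to 0.54. In the 9 untreated libraries alone rho with the rRNA rows ranged from 0.30 to 0.87, and relative to mapped reads it turned negative, from -0.77 to -0.42.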

How the data were processed

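The members and lists were chosen with earlier results of these data known. The authors base-called nanopore reads with Dorado, mapped them to the mitochondrial genome with minimap2 2.17-r941, and deposited the counts of mapped and total reads (SAMtools 1.10) and the percent mapped, which was recomputed here. The authors deposited raw featureCounts counts per feature, without normalization. Their methods name both a setting that allows reads over several features and the exclusion of such reads. RefSeq positions matched all 37 genes. No sequence is printed.

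Levels were computed per 1000000 total reads (RPM). Counts were tested with edgeR 4.0.16 in R 4.3.3 (library size set to total reads, rows with 10 or more counts in 3 or more libraries, cell line as the factor or, for IMT1, as a block), with DESeq2 1.42.0 as an alternative. Within-pair log2 ratios (0.5 added) and gene-row shares (at least 10 CDS-row reads) were tested by two-sided exact permutation in Python 3.11.15, with Benjamini-Hochberg adjustment. Intervals are 95% Wilson, or exact Poisson for levels, and cover counting error only, since PCR reads carry no molecular identifiers. The edgeR script was tested on simulated data. Replicates of the same line all differed by more than sampling noise (chi-square test of gene counts), so each was kept as its own library. The replicate numbers pair H1437 with PC9, whose same-numbered libraries had correlated deviations across the 35 gene rows tested (correlations 0.921, 0.747, and 0.931). H23 did not pair with either. Named genes were the members, the genes beside them, and the 2 rows most similar to each member over all libraries, with other genes given as counts over lists. ND4L/ND3, and ND1, ND2, and COX1 beside ND4L, were named after their values were seen.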

Additional observations from a re-analysis of the deposited data

Results flagged for a closer look

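Several differences between the IMT1 and control libraries had opposite signs in the cell lines where both libraries held at least 10 reads. With 1 library per line and treatment, these differences between lines were not tested. The ATP8 CDS-row level changed by -0.34 on the log2 scale in H1437 and by 0.32 in H23. In H1437 it rests on 16 reads in the control and 13 with IMT1. The counting intervals of control and IMT1 overlapped in both lines. The ATP6/ATP8 log2 ratio changed by 0.14 in H1437 and by -1.46 in H23, and the ATP8 gene-row share by 10.1 percentage points in H1437 and by -17.6 in H23. The H1437 changes rest on the same few ATP8 reads and lay within counting error. The ND4L gene row changed by 1.00 on the log2 scale in H1437 and by -0.20 in H23. It held 30 reads in the control and 62 with IMT1 in H1437, and 306 and 291 in H23. The ND4 gene-row share changed by 3.58 and 3.73 percentage points in H1437 and H23 and by -0.37 in PC9. The PC9 change, from 184 of 188 reads to 78 of 80, lay within counting error. No outlier test was run on groups of 3 libraries.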

How the results depend on the processing

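Counts of calls by edgeR between cell lines rested on the rows and libraries used. On the gene rows, 0 were called for H23 against H1437, H23 against PC9, and the 3 lines together. Without the tRNA rows 13, 9, and 12 were called, with all untreated and control libraries 10, 13, and 12, and with those libraries except the knockdown control 0, 11, and 9. DESeq2 with total reads called 7 for H23 against H1437 and 0 for H23 against PC9. The same comparisons also had 0 calls on the CDS rows (tested with the rRNA, tRNA, and D-loop rows). Without the tRNA rows 7, 5, and 8 were called, with all untreated and control libraries 8, 24, and 22, and without the knockdown control 0, 21, and 11. DESeq2 with total reads called 12 for H23 against H1437 and 9 for H23 against PC9. Leaving out 1 library at a time gave 0 to 9, 0 to 12, and 0 to 11 calls on the gene rows and 0 to 2, 0 to 13, and 0 to 12 on the CDS rows, all of them without PC9 replicate 2. H1437 against PC9 had 0 calls under every alternative run, and the exact permutation test over the 3 lines called 0 rows of either kind. TMM factors, mapped reads as the library size, no filter on low counts, and DESeq2 with its own size factors gave 0 calls between lines.

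With the replicate number as a block over the 3 lines, edgeR called 14, 20, and 18 CDS rows for H23 against H1437, H23 against PC9, and the 3 lines, and 0 gene rows. The calls included ATP8, ATP6, and ND4 in the first comparison and all 4 members in the second. The H23 libraries share only a number with the others (correlations of deviations from -0.75 to 0.16 on the gene rows), and a block on H1437 and PC9 alone, which do pair, changed no call. With the block the within-pair ratios had adjusted P of 1.00 for ATP6/ATP8 and 0.333 for ND4/ND4L, and the gene-row shares 1.00 for ATP6 and 0.417 for ND4. Lines were permuted within replicate numbers there, with too few arrangements for a lone ratio or share to pass after adjustment. The block therefore cannot decide on these ratios and shares. With all untreated and control libraries, the exact permutation test gave an adjusted P of 0.0518 for ND4/ND4L and 0.251 for the ND4L share. Without the knockdown control these were 0.0758 and 0.163. Before adjustment, P was 0.0173 and 0.0419 in the first set and 0.0213 and 0.0272 in the second. No within-pair ratio or gene-row share of a member passed under any alternative. Their adjusted P without 1 library ranged from 0.164 to 1.00 for ATP6/ATP8, from 0.139 to 0.543 for ND4/ND4L, from 0.905 to 1.00 for the ATP6 share, from 0.610 to 1.00 for the ND4L share, and from 0.30 to 1.00 for the ND4 share.

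The log2 difference of ND4L between H23 and H1437 reversed to -0.64 on the CDS row with TMM factors, and to -0.69 on the CDS row and -0.27 on the gene row with DESeq2's own size factors. For IMT1, edgeR called 2 gene rows without the tRNA rows, and DESeq2 with total reads called 1 gene row and 5 CDS rows. Leaving out 1 line gave 0 to 5 calls on the gene rows and 0 to 14 on the CDS rows, the highest in each case without PC9. The IMT1 differences reversed relative to mapped reads, to 0.81 for ATP6, 1.35 for ND4L, and 0.72 for ND4 on the CDS rows and to 0.81 for ATP6 and 0.76 for ND4 on the gene rows. They reversed with TMM factors to 0.12, 0.66, and 0.0066 on the CDS rows, and ND4L also to 0.19 with all untreated and control libraries as the control. With that control the ATP6 gene-row share was 1.45 percentage points higher with IMT1, in place of 0. Without 1 line the mean IMT1 difference ranged from -2.16 to -0.66 for the log2 ATP6/ATP8 ratio, from -0.75 to -0.50 for ND4/ND4L, from -17.6 to 10.1 percentage points for the ATP8 share, from 14.6 to 46.5 for the ND4L share, and from 1.60 to 3.65 for the ND4 share.

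In the ADAR1 KD comparison, mapped reads as the denominator gave log2 ratios of 0.35 for ATP8, -1.14 for ATP6, -0.55 for ND4L, and -0.75 for ND4. Against the mean of the 4 H23 libraries that were untreated or the IMT1 control, the ratios were -0.81 for ATP8, -1.78 for ATP6, -1.58 for ND4L, and -1.22 for ND4. Spearman's rho in the 9 untreated libraries was 0.85 for ATP8 with ATP6 and 0.88 for ND4L with ND4, and relative to mapped reads the latter was 0.77. The cause of these changes was not tested. Depth limits ATP8 most, with under 10 CDS-row reads in 9 of 17 libraries, and the ADAR1 KD library, with 2 to 66 reads on each member's CDS row.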
